A study of Mus musculus with 6 samples.

Results

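The genes described here govern whether haematopoietic stem cells (HSCs) stay in the bone marrow or leave it for the blood. They are 10 named genes, Cxcr4, Ackr3, Csf3r, Itga4, Itgb1, Cd44, Robo4, Dpp4, Rgs1 and Rgs18, out of 22180 genes with a symbol of their own on the array. For each gene the transcript cluster (the probe set that stands for a transcript) with its symbol alone was read on 6 arrays. The Chrm1-/- group holds 3 arrays of HSCs from C57Bl/6 mice lacking Chrm1, a muscarinic acetylcholine receptor gene, and the WT group holds 3 arrays of HSCs from wild type C57Bl/6 mice. Both groups came from steady state marrow, with no mobilizing agent named, and the sort took cells without lineage markers or Flt3 that carried Sca1 and cKit. The labels used here do not give the age or sex of the mice, the design of the deleted allele or whether an array stands for 1 mouse or several. The series title places the receptor's action in the central nervous system, with glucocorticoid hormones as the relay to the marrow, so the comparison asks how HSCs taken from animals without the receptor differ at rest.

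HSCs are held in the marrow by the chemokine CXCL12, made by stromal cells, which signals through the G protein-coupled receptor CXCR4 on the HSC. Integrins and CD44 add adhesion to the matrix and to stromal and vessel cells. Mobilization, the release of HSCs into the blood, follows when these ties are loosened, as after treatment with the cytokine G-CSF or with CXCR4 antagonists. RGS proteins speed the return of G proteins to their resting state and so shorten chemokine receptor signals.

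The promoters of the CXCL12 receptor pair (Cxcr4 and Ackr3) and of both chains of the main VCAM1-binding integrin (Itga4 and Itgb1) are shown because these are the core retention genes. Each run holds the 250 bases before the gene's start in RefSeq (build GRCm38.p6), on the gene's own strand. Capitals mark matches on either strand to a TATA box (TATAAA), a GC box (GGGCGG) or a glucocorticoid receptor half-site (AGAACA). The windows are chr1:128592300-128592549 on the minus strand for Cxcr4, chr1:90203730-90203979 on the plus strand for Ackr3, chr2:79255176-79255425 on the plus strand for Itga4 and chr8:128685404-128685653 on the plus strand for Itgb1.
Cxcr4: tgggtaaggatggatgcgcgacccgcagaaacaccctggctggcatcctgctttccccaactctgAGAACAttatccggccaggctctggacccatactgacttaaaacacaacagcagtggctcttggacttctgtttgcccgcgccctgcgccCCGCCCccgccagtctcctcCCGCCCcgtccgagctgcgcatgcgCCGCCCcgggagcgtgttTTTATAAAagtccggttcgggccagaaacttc
Ackr3: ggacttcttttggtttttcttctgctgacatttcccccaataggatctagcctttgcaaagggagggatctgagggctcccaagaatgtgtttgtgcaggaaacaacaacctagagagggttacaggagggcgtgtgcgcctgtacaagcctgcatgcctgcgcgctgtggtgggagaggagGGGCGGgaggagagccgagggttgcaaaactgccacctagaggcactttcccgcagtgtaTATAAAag
Itga4: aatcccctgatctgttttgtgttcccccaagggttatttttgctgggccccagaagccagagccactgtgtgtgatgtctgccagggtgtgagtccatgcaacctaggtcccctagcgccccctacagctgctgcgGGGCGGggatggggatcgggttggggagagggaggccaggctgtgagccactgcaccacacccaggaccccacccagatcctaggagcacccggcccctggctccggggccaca
Itgb1: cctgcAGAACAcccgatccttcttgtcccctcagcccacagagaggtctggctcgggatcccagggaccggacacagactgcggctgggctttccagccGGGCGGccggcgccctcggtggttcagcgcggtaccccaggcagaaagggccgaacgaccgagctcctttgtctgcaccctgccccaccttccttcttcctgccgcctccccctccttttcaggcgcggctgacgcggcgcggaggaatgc
The capitals of the Cxcr4 run beginning 32 bases before the start are TATA box matches on both strands that overlap by several letters. Ackr3 had a TATA box match 8 bases before the start, and neither integrin chain had one. Of the 8 members with a promoter entry, 3 held a TATA box match, against 12.4% of all 32851 promoter windows of the same length. The third was Dpp4, with its match 227 bases before the start. The count takes a match anywhere in the window. A GC box match was present in 4 of the 8, against 32.7% of all windows, and a half-site match in 3 of the 8 (Cxcr4, Itgb1 and Dpp4), against 16.1%. These matches describe letters only and were not tested for binding.

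For none of the 10 genes did the difference between Chrm1-/- and WT HSCs pass the test against the spread between arrays. All 10 had a mean signal above the median of all genes, which was the condition for testing, and 0 of them passed the threshold of 0.05 on the adjusted p in limma. The same held for all 11094 genes tested, of which 0% passed. At an unadjusted p under 0.05 there were 0 of the 10 members, where 2.99% of all tested genes lay below that p, 1.40% as higher in Chrm1-/- and 1.60% as lower. In mean signal 5 members were higher in Chrm1-/- (Robo4, Itgb1, Cxcr4, Ackr3 and Csf3r) and 5 were lower (Itga4, Cd44, Rgs1, Dpp4 and Rgs18), where 5545 of all tested genes were higher and 5463 lower. The members' median log2 difference was -0.01, against 0.00 over all tested genes. Each member's adjusted p was 0.996 in limma (lmFit and eBayes, two-sided, Benjamini-Hochberg), so it is not repeated below.

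**Figure D1:**
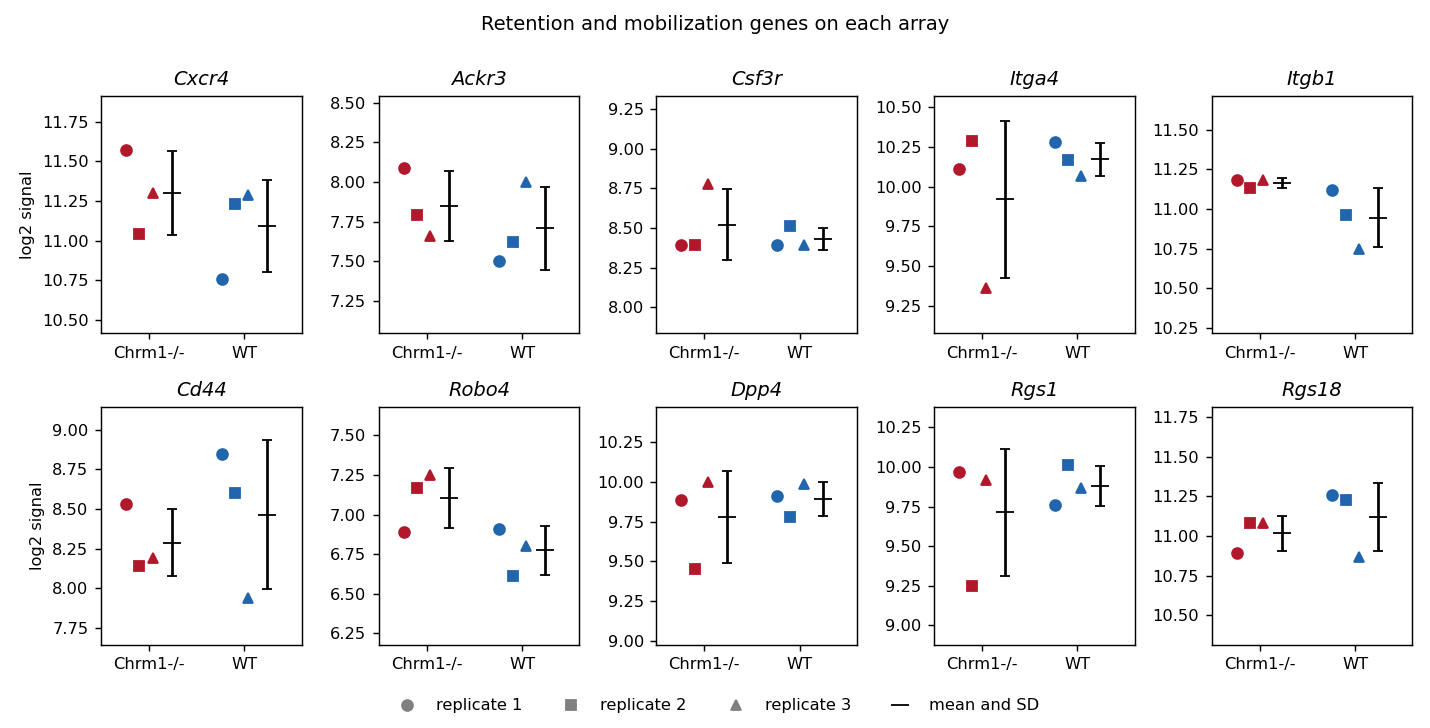
Log2 signal of each of the 10 genes on the Chrm1-/- and WT arrays, with each group's mean and SD (n = 3) in black beside its points. Each panel spans 1.5 log2 units on an axis of its own, and Itgb1 is the gene whose groups do not overlap.

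The arrays were on a common scale, with medians from 6.49 to 6.57, and each array's mean Pearson correlation with the other genotype (0.923 to 0.929) was about that with its own (0.918 to 0.926). WT replicate 3 had the lowest of both. The transcript cluster of Chrm1 read 8.16, 7.52 and 7.58 on the Chrm1-/- arrays and 7.45, 7.44 and 7.67 on the WT arrays. No source used here says which part of the gene its probes cover, so these readings do not check the genotype. Of the HSC markers, 10 of 11 on the array had signals above the median of all genes (Esam did not), among them Kit at 10.88 in Chrm1-/- and 10.90 in WT. All 6 erythroid markers on the array were above that median too. The granulocyte precursor marker Mpo had means of 11.27 in Chrm1-/- and 11.35 in WT. Of the 10 tested HSC markers, 5 were higher and 5 lower in Chrm1-/-, and Procr, a surface receptor used to purify HSCs, read 8.16, 8.19 and 8.24 in Chrm1-/- against 8.40, 8.45 and 8.50 in WT, with no overlap and an unadjusted p of 0.0393 in limma. Of the marker lists not taken up below, lymphocyte genes had 2 tested members higher and 2 lower in Chrm1-/-, monocyte and macrophage genes 3 and 4, and erythroid genes 4 and 2. Among these the macrophage gene Cd68 read 8.47, 8.16 and 8.19 in Chrm1-/- against 8.79, 9.0 and 10.25 in WT, with no overlap and an unadjusted p of 0.0309 in limma. For both genes limma gave an adjusted p of 0.996. Of all tested genes, 2.97% were lower with no overlap, and 1.60% were lower at an unadjusted p under 0.05 in limma. The other tested monocyte and macrophage genes went both ways. Ly6c2, Ccr2 and Lyz2 differed by -0.56, -0.26 and -0.05, and Cx3cr1, C1qa and Fcgr3 by 0.14, 0.08 and 0.07. The part of these markers in the members' readings was not tested. Whether a lower signal in these bulk samples means fewer cells of a type or less RNA per cell cannot be told apart. Nothing in the labels says that replicates came from separate mice, so the p-values rest on array-to-array spread that could be technical.

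Cxcr4, the receptor that tethers HSCs to CXCL12, read 11.57, 11.04 and 11.30 on the Chrm1-/- arrays, against 10.76, 11.23 and 11.29 on the WT arrays. The highest reading was Chrm1-/- replicate 1 and the lowest WT replicate 1, while the other four arrays lay between them and the groups overlapped. The log2 difference was 0.21 ± 0.20 (SE, n = 3 each), with a 95% interval from -0.29 to 0.71, which corresponds to a fold between 0.820 and 1.63. The unadjusted p was 0.343 in limma. Leaving out WT replicate 1 brought the difference down to 0.04 and leaving out Chrm1-/- replicate 2 raised it to 0.34.

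Ackr3 encodes an atypical receptor that binds CXCL12 and removes it without G protein signalling. It read 8.09, 7.79 and 7.66 on the Chrm1-/- arrays and 7.50, 7.62 and 8.0 on the WT arrays. The highest readings were Chrm1-/- replicate 1 and WT replicate 3, so the groups overlapped. The difference was 0.14 ± 0.18 (SE), with a 95% interval from -0.31 to 0.59. Without WT replicate 3 it was 0.29 and the groups no longer overlapped, and without Chrm1-/- replicate 1 it was 0.02. The ligand gene Cxcl12, which marrow stroma makes, read 6.98 ± 0.05 in Chrm1-/- and 6.90 ± 0.20 in WT (SD, n = 3 each).

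Csf3r, which encodes the G-CSF receptor, read 8.39, 8.39 and 8.78 on the Chrm1-/- arrays and 8.39, 8.51 and 8.39 on the WT arrays. The same value stood on 4 of the 6 arrays, 2 of each genotype, and Chrm1-/- replicate 3 stood above the others. The difference was 0.09 ± 0.14 (SE), with a 95% interval from -0.26 to 0.44, and it was -0.04 without Chrm1-/- replicate 3. Neutrophil precursors also carry this receptor. Of the 12 granulocyte precursor markers, 5 were tested and all 5 were lower in Chrm1-/-, 0 of them with an unadjusted p under 0.05 in limma. With the markers too dim to be tested, 9 of the 12 were lower and 3 higher. The median log2 difference was -0.36 over the 5 and -0.18 over the 12. The list's mean level ran from 6.86 to 7.14 on the Chrm1-/- arrays and from 7.09 to 7.25 on the WT arrays. Its part in the Csf3r readings was not tested.

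Itga4 and Itgb1 encode the chains of the integrin through which HSCs bind VCAM1 and fibronectin, and blocking that integrin mobilizes HSCs. Itgb1 read 11.18, 11.13 and 11.18 on the Chrm1-/- arrays, against 11.12, 10.96 and 10.75 on the WT arrays. The 3 Chrm1-/- arrays lay above the 3 WT arrays, with 0.01 between the nearest readings, which is the last decimal of the deposited values. Itgb1 was thus 1 of 10 members whose groups did not overlap, where 5.79% of all tested genes did not overlap, 2.81% as higher in Chrm1-/- and 2.97% as lower. The difference was 0.22 ± 0.13 (SE), with a 95% interval from -0.09 to 0.53 and an unadjusted p of 0.133 in limma. The two-sided exact permutation test on its 6 values gave p = 0.1, below which a 3 against 3 design cannot go. Centring each array on its median ended the separation, and the difference was 0.12 without WT replicate 3.

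Itga4 read 10.11, 10.29 and 9.36 on the Chrm1-/- arrays, against 10.28, 10.17 and 10.07 on the WT arrays. Chrm1-/- replicate 3 alone was low, by 0.69 below the gene's mean over the 6 arrays, and the other five readings lay within a narrow band. The difference was -0.25 ± 0.25 (SE), with a 95% interval from -0.86 to 0.36. Without Chrm1-/- replicate 3 the sign turned and the difference was 0.03. On that same array Itgb1, the partner chain, read 11.18, one of its highest values.

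Cd44 encodes a receptor for hyaluronan and, when suitably glycosylated, a ligand for selectins. It read 8.53, 8.14 and 8.19 on the Chrm1-/- arrays and 8.85, 8.60 and 7.94 on the WT arrays. The WT arrays held both the highest and the lowest reading, so the groups overlapped. The difference was -0.18 ± 0.26 (SE), with a 95% interval from -0.80 to 0.45, the widest among the 10 genes. Without WT replicate 3 the 2 remaining WT arrays lay above the 3 Chrm1-/- arrays, with a difference of -0.44 and an unadjusted p of 0.0531 in limma. Without WT replicate 1 the sign turned and the difference was 0.02.

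Robo4 encodes a receptor of the Roundabout family, found on endothelium and on HSCs, which in mice promotes the lodging of HSCs in the marrow. It read 6.89, 7.17 and 7.25 on the Chrm1-/- arrays and 6.91, 6.61 and 6.80 on the WT arrays. Chrm1-/- replicates 2 and 3 lay above all WT arrays, and replicate 1 lay just under WT replicate 1, so the groups overlapped by a small margin. Robo4 had the largest difference of the 10 genes, 0.33 ± 0.15 (SE), with a 95% interval from -0.02 to 0.68 and an unadjusted p of 0.0627 in limma. Of all tested genes, 85.0% had a smaller absolute difference. Robo4 was also the dimmest of the 10 genes. Its WT mean of 6.77 equalled the signal condition for testing, so it stood above that condition through the Chrm1-/- arrays (mean 7.10). Leaving out Chrm1-/- replicate 1 gave a difference of 0.44 with an unadjusted p of 0.0243, and leaving out WT replicate 2 gave 0.25 with 0.18. Of 12 endothelial and stromal markers, 6 were tested, 4 of them higher and 2 lower in Chrm1-/-, and the list's mean level ran from 6.999 to 7.04 on the Chrm1-/- arrays and from 6.945 to 6.996 on the WT arrays. That list level was thus higher on all 3 Chrm1-/- arrays, the same direction as Robo4. The nearest levels, 6.999 and 6.996, were closer than the last decimal of the deposited values. The median log2 difference was 0.14 over the 6 tested markers and 0.03 over the 12. Pdgfrb, Pecam1, Emcn and Cxcl12 differed by 0.38, 0.22, 0.21 and 0.08, and Cdh5 and Tek by -0.15 and -0.12. Pdgfrb overlapped, at 7.92, 6.80 and 7.86 in Chrm1-/- and 7.36, 7.06 and 7.01 in WT. Of the 6 tested, 0 had an unadjusted p under 0.05 in limma. Among the markers too dim to be tested, Lepr, Pdgfra and Col1a1 differed by 0.09, 0.06 and 0.01. Cldn5, Plvap and Kdr differed by -0.15, -0.06 and -0.02, so 7 of the 12 were higher and 5 lower. The part of these markers in the Robo4 readings was not tested.

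**Figure D2:**
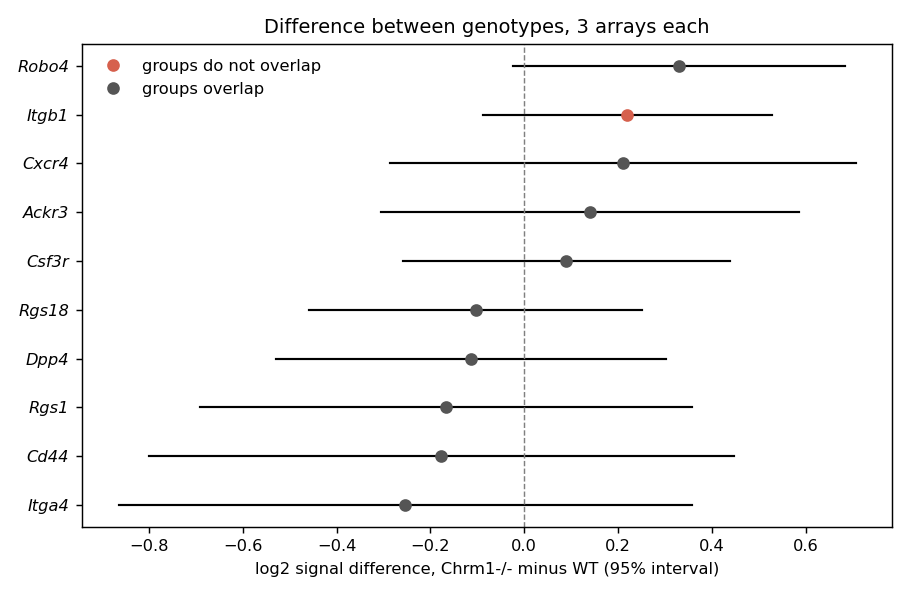
Log2 difference in signal, Chrm1-/- minus WT, for each of the 10 genes, with limma's 95% interval as a line (3 arrays per genotype). Every interval spans 0, and Robo4 lies farthest to the right at 0.33.

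Dpp4 encodes a surface peptidase that clips CXCL12 and so inactivates it. It read 9.89, 9.45 and 10 on the Chrm1-/- arrays and 9.91, 9.78 and 9.99 on the WT arrays. Chrm1-/- replicate 2 was the lowest of the 6, and the other Chrm1-/- arrays lay among or next to the WT ones. The difference was -0.11 ± 0.17 (SE), with a 95% interval from -0.53 to 0.30, and it was 0.05 without Chrm1-/- replicate 2.

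Rgs1 and Rgs18 encode RGS proteins that shorten chemokine receptor signals, Rgs18 above all in megakaryocytes and platelets. Rgs1 read 9.97, 9.25 and 9.92 on the Chrm1-/- arrays and 9.76, 10.01 and 9.87 on the WT arrays. Chrm1-/- replicate 2 was low here too, by 0.55 below the gene's mean over the 6 arrays. The difference was -0.17 ± 0.22 (SE), with a 95% interval from -0.69 to 0.36, and it was 0.07 without that array. Rgs18 read 10.89, 11.08 and 11.08 on the Chrm1-/- arrays and 11.26, 11.23 and 10.87 on the WT arrays. WT replicates 1 and 2 were the highest and WT replicate 3 the lowest, so the groups overlapped. The difference was -0.10 ± 0.15 (SE), with a 95% interval from -0.46 to 0.25. It was -0.23 without WT replicate 3, and -0.03, -0.05 and -0.04 without WT replicate 1, WT replicate 2 and Chrm1-/- replicate 1. Of the megakaryocyte and platelet markers, 8 were on the array and 5 were tested, 2 higher and 3 lower in Chrm1-/-. Their mean level ran from 7.05 to 7.41 on the Chrm1-/- arrays and from 7.22 to 7.29 on the WT arrays. The platelet chemokine gene Pf4 read 8.20, 9.44 and 8.06 in Chrm1-/- and 9.54, 9.46 and 9.33 in WT (difference -0.88, unadjusted p 0.0532 in limma). Of the 5 tested, Treml1 alone had no overlap, at 7.89, 7.82 and 7.57 in Chrm1-/- and 7.94, 8.44 and 7.96 in WT. Its unadjusted p was 0.0938 in limma, and 2.97% of all tested genes were lower with no overlap. Itga2b, Gp9 and Vwf differed by -0.04, 0.003 and 0.003. The part of these markers in the Rgs18 readings was not tested.

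**Figure D3:**
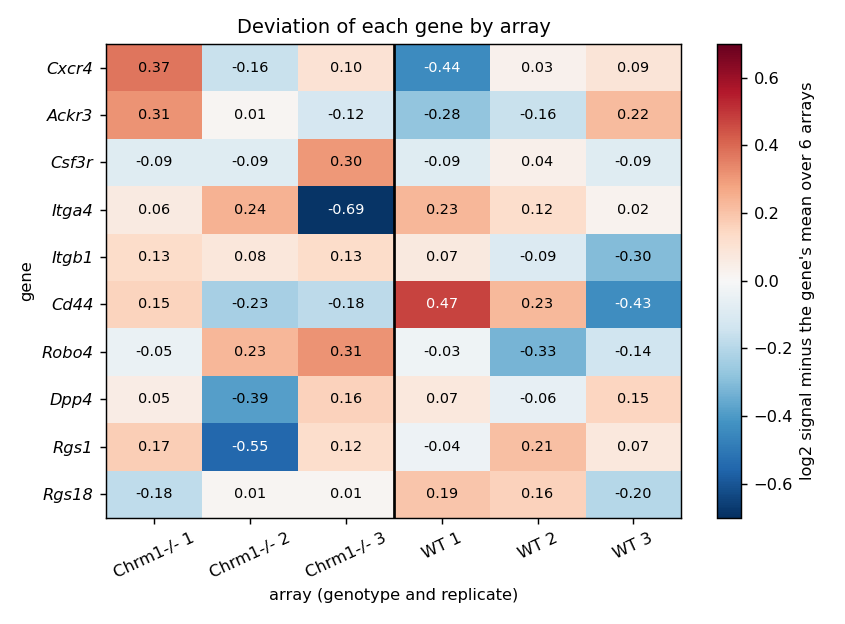
Log2 signal of each gene on each array, less that gene's mean over the 6 arrays, with the Chrm1-/- arrays left of the black line and the WT arrays right of it. The strongest colours are single readings, such as Itga4 on Chrm1-/- replicate 3 (-0.69) and Rgs1 on Chrm1-/- replicate 2 (-0.55), and they fall on different arrays for different genes.

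Among the 10 genes no array was high or low throughout. Chrm1-/- replicates 1, 2 and 3 lay above the gene's own mean for 7, 5 and 7 of the members, and WT replicates 1, 2 and 3 for 5, 6 and 5. The pooled within-group SD ran from 0.13 for Itgb1 to 0.36 for Cd44, against a median of 0.22 over all tested genes. The members' median absolute difference was 0.17, against 0.12 over all tested genes. Of the members, 5 kept the sign of their difference whichever array was left out (Robo4, Itgb1, Cxcr4, Ackr3 and Rgs18), and Csf3r, Itga4, Cd44, Dpp4 and Rgs1 did not. WT replicate 3 had the most effect on separation. Without it, Ackr3 and Itgb1 were higher and Cd44 and Rgs18 lower in Chrm1-/- with no overlap, 4 of 10 members, where 17.8% of all tested genes did not overlap in the same 5 arrays.

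**Figure D4:**
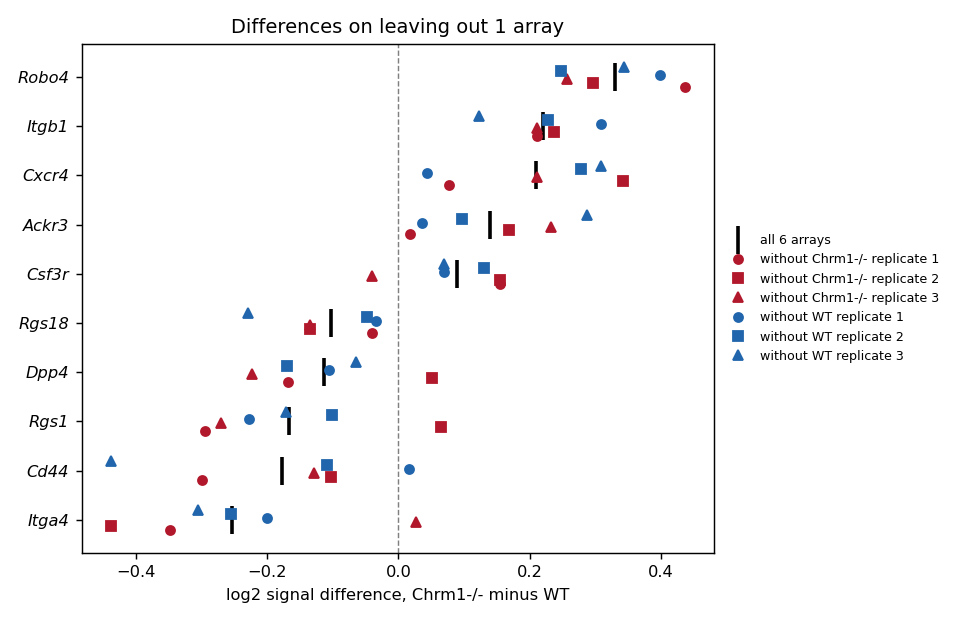
Log2 difference, Chrm1-/- minus WT, for each gene with all 6 arrays (black bar) and after leaving out each array in turn (red for a Chrm1-/- array, blue for a WT array). The marks of Csf3r, Rgs1, Dpp4, Cd44 and Itga4 fall on both sides of 0.

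The genes whose signal followed that of Cxcr4 most closely over the 6 arrays were Cd34, a surface sialomucin of blood progenitors, with a Pearson r of 0.998, Gpld1, a phospholipase that cleaves lipid anchors, with 0.991, and Insr, the insulin receptor, with 0.984. Cd34 spanned 11.14 to 11.37 and Cxcr4 10.76 to 11.57. These were the highest of 11093 genes searched on only 6 arrays, 111 of which exceeded 0.9, so they are a description. Of the other members, Ackr3 had an r of 0.76 with Cxcr4 and Rgs18 one of -0.73.

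Genes that work with the members were read from fixed lists, of which 0 genes passed the adjusted threshold in limma. Among CXCR4 signalling partners, 27 of 29 on the array were tested, 15 higher and 12 lower in Chrm1-/-, with a median log2 difference of 0.04. Grk5, a kinase that switches off G protein-coupled receptors, read 6.70, 6.46 and 6.29 on the Chrm1-/- arrays and 7.23, 7.76 and 6.64 on the WT arrays. Its mean was 6.48 in Chrm1-/- and 7.21 in WT, so it met the signal condition of 6.77 through the WT arrays alone, and its unadjusted p of 0.0461 in limma (adjusted 0.996) supports no count. The other tested genes of this list had 0 at an unadjusted p under 0.05 in limma. Arrb2, the arrestin that follows those kinases, differed by 0.57 ± 0.26 (SE), Plcb2, a phospholipase, by 0.24 ± 0.13 (SE), and Gnb1, a G protein subunit, by -0.27 ± 0.18 (SE). Of 19 other RGS genes 7 were tested, with 0 at an unadjusted p under 0.05 in limma and a median of -0.01; Rgs2, an inhibitor of Gq signalling, differed by 0.08 ± 0.11 (SE) and Rgs9, Rgs3 and Rgs12 by -0.07, -0.06 and -0.09.

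Of integrin partners and marrow ligands 19 were tested, 6 higher and 13 lower in Chrm1-/-, with a median of -0.03. Itga2, a collagen-binding integrin chain that pairs with Itgb1, read 7.60, 8.31 and 7.20 on the Chrm1-/- arrays and 7.17, 6.99 and 6.52 on the WT arrays, with no overlap and an unadjusted p of 0.0423 in limma. Itgb2, the leukocyte integrin chain, read 7.28, 7.62 and 7.51 on the Chrm1-/- arrays and 7.80, 8.20 and 7.81 on the WT arrays, also with no overlap and with an unadjusted p of 0.0271 in limma. Rap1b, a GTPase that activates integrins, also did not overlap, at 11.84, 11.82 and 11.76 in Chrm1-/- and 11.99, 11.93 and 11.85 in WT, with an unadjusted p of 0.286 in limma. These made 3 of 19 tested genes with no overlap and 2 of 19 at an unadjusted p under 0.05 in limma, where all tested genes gave 5.79% and 2.99%, and each had an adjusted p of 0.996 in limma. Rap1b was named after its values were seen. Its groups were separated by the last deposited decimal only (11.84 and 11.85). The nearest readings were 7.20 and 7.17 for Itga2, and 7.62 and 7.80 for Itgb2. Of the lists read, this one had the most genes with no overlap. In the CXCR4 list 2 of 27 tested genes did not overlap, Plcb2 among them, both higher in Chrm1-/-. The RGS, other receptor and protease lists had 0. The platelet integrin chain gene Itgb3 differed by 0.22 ± 0.14 (SE) and Selplg, the selectin ligand PSGL-1, by 0.41 ± 0.33 (SE). Vcam1, the ligand of the Itga4 and Itgb1 integrin on marrow stroma, read 5.93 in Chrm1-/- and 6.02 in WT, too dim to be tested.

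Of other retention and mobilization receptors 12 were tested, with a median of -0.01 and 0 at an unadjusted p under 0.05 in limma. S1pr1, which draws HSCs towards sphingosine phosphate in blood, read 7.09, 7.19 and 7.29 on the Chrm1-/- arrays and 7.76, 8.30 and 7.17 on the WT arrays, a difference of -0.55 ± 0.28 (SE). Csf2ra, the receptor chain for GM-CSF, differed by 0.21 ± 0.15 (SE), Cx3cr1, the fractalkine receptor, by 0.14 ± 0.11 (SE) and Ccr2, a monocyte chemokine receptor, by -0.26 ± 0.20 (SE). Slit2, a ligand of the Roundabout family, read 6.01 in Chrm1-/- and 5.91 in WT, too dim to be tested. Of proteases 13 were tested, 4 higher and 8 lower, with a median of -0.02 and 0 at an unadjusted p under 0.05 in limma. The granule proteases Ctsg, Elane and Prtn3, also granulocyte precursor markers, differed by -0.44 ± 0.21, -0.36 ± 0.24 and -0.14 ± 0.16 (SE), and Dpp9, an intracellular relative of Dpp4, by -0.31 ± 0.15 (SE). Mmp9, a matrix protease of neutrophils, read 6.16 in Chrm1-/- and 6.17 in WT and was too dim to be tested.

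**Figure D5:**
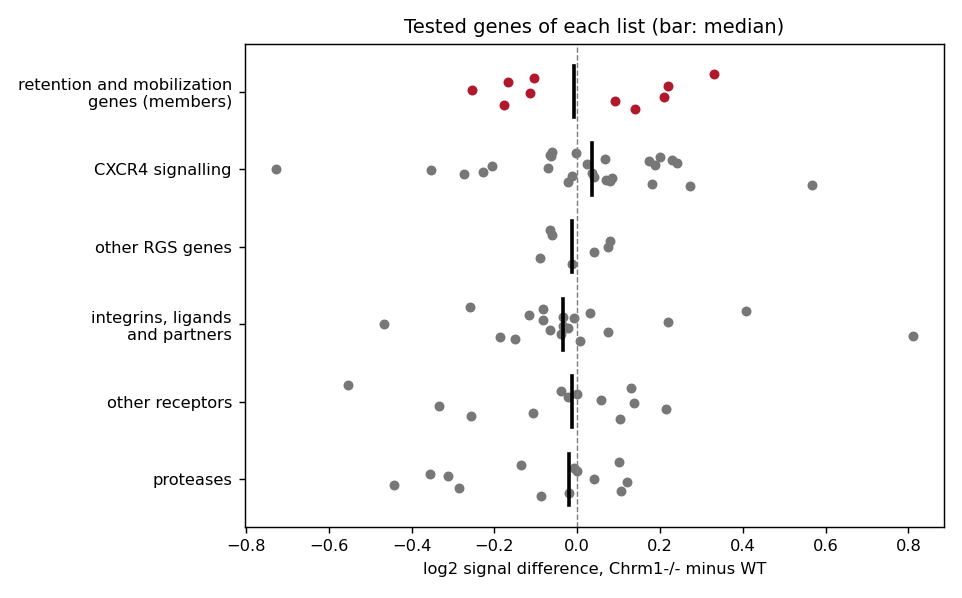
Log2 difference, Chrm1-/- minus WT, of each tested gene (points) in the 10 members and in the lists of genes that work with them, with each list's median as a bar. The medians lie between -0.03 and 0.04.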

How the data were processed

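HSC RNA was hybridised to Affymetrix mouse gene ST arrays, 3 for Chrm1-/- and 3 for WT, and the labelled genotype sets the groups. The authors amplified the RNA with a NuGEN system and processed the arrays in Affymetrix analysis software, per the series design text. No source used here gives the software's version, summarization or normalization. The authors' deposited values, 1 per transcript cluster and array with 2 decimals, were read as log2 signals because they run from 3.02 to 13.67 and the table names no scale. They were used without further normalization.

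Of 41345 transcript clusters, 23521 had 1 symbol in the platform annotation; 1814 with several and 16010 with none were left out. For 1082 genes with over 1 cluster the one of highest mean was kept. Testing was limited to genes whose mean reached the median gene's, 6.77. Chrm1-/- minus WT was fitted with limma 3.58.1 in R 4.3.3 (lmFit and eBayes, Benjamini-Hochberg over all tested genes), tested on simulated data. Tables were joined and plots drawn in Python 3.11.15. The number of arrays limits the precision: the median SE of a difference was 0.17. The text names the 10 members, the 4 genes of smallest unadjusted p in each pathway list, 4 ligand or protease genes (Cxcl12, Vcam1, Slit2 and Mmp9), markers and the 3 genes most like Cxcr4. Members and lists were chosen with earlier results of these data known. Alternatives covered the filter, normalization, choice of cluster, moderation, array weights, the replicate block and leaving out each array.

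Arrays of both genotypes share replicate numbers. Deviations of same-numbered arrays from their group means correlated at -0.03, 0.01 and -0.01 over the tested genes, so the numbers were not taken as pairs.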

Additional observations from a re-analysis of the deposited data

Results flagged for a closer look

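A further transcript cluster, outside the comparison because it carries the symbols of both Itga4 and its neighbour Cerkl, read 6.91, 7.48 and 6.78 on the Chrm1-/- arrays and 6.64, 6.77 and 6.60 on the WT arrays. It was picked out as a signal above the WT arrays in values that the comparison does not use. The log2 difference was 0.39, from 7.06 ± 0.37 in Chrm1-/- and 6.67 ± 0.09 in WT (SD, n = 3 each), with no overlap, where 2.76% of 1814 clusters with several symbols were higher in Chrm1-/- with no overlap. The nearest readings of the groups were 0.01 apart, the last deposited decimal, and the difference was 0.175 without Chrm1-/- replicate 2. The cluster with the Itga4 symbol alone leaned the other way, at -0.25, with its lowest reading on Chrm1-/- replicate 3 (9.36). The shared cluster also had its lowest Chrm1-/- reading on that array (6.78), but there it stayed above all WT arrays. Which of the 2 genes the probes detect was not tested.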

How the results depend on the processing

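No member passed the adjusted threshold in limma under any of the alternatives run, and 143 of 148 differences kept their sign. That count says little. Changing the filter, the moderation, the choice of cluster or the replicate block left each member's difference as it was, so no sign could turn there. On leaving out 1 array the sign of the log2 difference turned for 5 members. Cd44 ran from -0.438 to 0.0167 (turned without WT replicate 1), Csf3r from -0.04 to 0.155 (without Chrm1-/- replicate 3), Dpp4 from -0.223 to 0.0517 and Rgs1 from -0.295 to 0.065 (both without Chrm1-/- replicate 2) and Itga4 from -0.438 to 0.0267 (without Chrm1-/- replicate 3). Members at an unadjusted p under 0.05 numbered 1 with no filter on dim genes (Robo4, 0.049), 1 with array weights (Robo4, 0.0337) and 0 to 1 on leaving out 1 array. Members whose groups did not overlap numbered 0 with median centring, which ended the call of Itgb1, where 6.91% of all tested genes did not overlap. On leaving out 1 array they numbered 1 to 4. There 13.1% to 17.8% of all tested genes did not overlap, against 5.79% with all 6 arrays. The members' median was -0.11 with the filter at the 75th percentile, which leaves 8 members, and -0.0108 to 0.11 on leaving out 1 array. Over all genes, the count at an adjusted p under 0.05 in limma was 1 without moderation (Apmap) and 0 to 1 on leaving out 1 array (Gdpd3 without WT replicate 1 and Snord49a without Chrm1-/- replicate 3), genes named after their values were seen. The count at an unadjusted p under 0.05 was 332 as reported, 567 with no filter, 169 with the filter at the 75th percentile and 335 to 522 on leaving out 1 array, highest without WT replicate 3. With the replicate block it was 396, and the block changed no other call: 0 members had an unadjusted p under 0.05, and Robo4 had 0.119. A gene with no overlap on all 6 arrays stays so when 1 is left out, so leaving out an array can only add such genes. The filters change the set of genes tested. The cause of the other shifts was not tested.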

Other observations

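Csf3r held the same value to 2 decimals on 4 of 6 arrays. Of all tested genes, 241 (2.17%) held the same value on at least 4 arrays, 38 on at least 5 and 2 on all 6, and of the 10 members Csf3r was the only one with more than 2 equal readings. Itgb1 had equal readings on 2 Chrm1-/- arrays, and its SD there, 0.03 (n = 3), was the smallest among the 10 genes.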
